A study of Mus musculus with 2 samples.

Results

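The genes described here encode ligands, receptors and an inhibitor of activin and TGF-beta signalling, a follistatin-like protein (Fstl1) and a matrix protein (Tgfbi). They were chosen by name: every array probe listed under Inhba, Inhbb, Fst, Fstl1, Tgfb1, Tgfb2, Tgfb3, Tgfbi, Tgfbr1 or Tgfbr2 was taken, 15 probes of 10 genes among the 29924 gene names on the array. The choice was made with the measured change of this same comparison in view, since Inhbb stood among the genes with the largest increase, so the values of the 10 genes are given as a description and without p-values. All 10 genes had a probe bright enough to be used, as had 20119 genes in all, and 14 of the 15 probes were kept.

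Ureters were dissected from wild-type NMRI mouse embryos at E11.5 and cultured on membranes for 18 h, either with 10 µM IWP-2 in DMSO or with DMSO alone as the control. IWP-2 blocks PORCN, the enzyme that adds the lipid without which WNT proteins are not secreted. All pools shared strain, genotype, stage and culture period, the medium contained no serum per the methods, and the sex of the embryos was not determined. Each pool held many ureters, and RNA of a treated and a control pool was hybridised together on a two-colour Agilent array. This was done on 2 arrays with separate pools. AlexaFluor647 marked the treated RNA and AlexaFluor555 the control RNA on array 1, and the reverse held on array 2. The whole ureter with its mesenchyme, epithelium, vessels and immune cells was measured, so fewer cells of a type and less RNA per cell cannot be told apart.

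Activins are dimers of inhibin beta subunits, and with the TGF-betas they belong to a family of secreted dimeric growth factors. A dimer brings together type II and type I receptor kinases, which phosphorylate SMAD2 and SMAD3 and thereby change transcription. Follistatin captures activins before they reach their receptors, whereas TGF-betas are secreted in a latent form bound to the matrix and must be released. In the developing kidney, members of the family are known to restrain branching of the ureteric epithelium, and in many tissues they promote the deposition of matrix.

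The probes that read the 2 activin subunit genes are shown first. Inhba was read by A_51_P239750 (mm9, chr13:16118634-16118693) and Inhbb by A_55_P2096422 (mm9, chr1:121312160-121312219, listed on the minus strand), whose last 30 of 60 bases are shown, with the polyadenylation signal AATAAA in capitals. The signal lies in 4 of the 15 probes and in 12.6% of all 39429 probes, counting the probe strand only.
Inhba probe: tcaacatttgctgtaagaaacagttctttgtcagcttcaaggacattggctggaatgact
Inhbb probe, bases 31 to 60: gtcctcacctttagtttatttAATAAAtcc

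Tgfb1 and Tgfb2 were read from related stretches, and their probes are shown to make clear how alike the probes are. Capitals mark the bases that are identical in the best alignment without gaps. The Tgfb1 probe A_51_P390715 (mm9, chr7:26489877-26489936) and the Tgfb2 probe A_65_P10913 (mm9, chr1:188449333-188449392, minus strand) shared 28 of 41 overlapping bases, or 68.3%.
Tgfb1 probe: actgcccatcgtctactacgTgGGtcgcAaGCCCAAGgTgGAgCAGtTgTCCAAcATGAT
Tgfb2 probe: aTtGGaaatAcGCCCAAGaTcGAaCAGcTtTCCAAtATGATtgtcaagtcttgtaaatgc
Against the probes of all other genes, each of the 15 probes had at most 30 to 34 identical bases of 60 in any alignment without gaps that overlapped by 30 bases or more. Probes were compared with probes only, so binding to the transcript of another gene was not tested. The exons and untranslated regions of mm9 were not used here, so the place of the probes within the transcripts is not stated.

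The WNT block was looked at first in genes that canonical WNT signalling is known to induce. The paper already names Nkd1 and Lef1 from its profiling of IWP-2-treated ureters. It also reports less Axin2 by RT-qPCR in treated ureters of a later stage. The values are therefore a description and no independent check. Nkd1, an inhibitor in the WNT pathway, fell, with a log2 ratio of -1.31 ± 0.20 (SD, n = 2 arrays; limma adjusted p = 0.0058), as did the transcription factor gene Sp5 with -1.12 ± 0.08 (limma adjusted p = 0.0066), and so did Lef1, which encodes a partner of beta-catenin on DNA, with -0.89 ± 0.09 (limma adjusted p = 0.0137). For Axin2, a negative regulator in the pathway, the mean of -1.01 ± 0.53 missed the threshold (limma adjusted p = 0.0502). On both arrays, all 4 genes were lower in the treated pool. Over all genes, 232 were lower and 123 higher at a false discovery rate (FDR) of 0.05, and the log2 ratios of the 2 arrays correlated across genes with r = 0.465.

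Among the ligands, the largest difference was that of Inhbb, which encodes the beta B subunit of activin B, activin AB and inhibin B. Its normalised intensity came to 1140 in the treated and 577 in the control pool of array 1, and 786 in the treated and 284 in the control pool of array 2. Both treated pools lay above both control pools, with the intensities also normalised between arrays. The treated pool was thus 1.97-fold higher on array 1 and 2.77-fold on array 2, with a mean log2 ratio of 1.22 ± 0.34 (SD, n = 2 arrays), or 2.34-fold. Each array carried the probe on 4 spots, all well above background in both dyes. The log2 ratios of these spots ran from 0.85 to 1.08 on array 1 and from 1.43 to 1.52 on array 2, so the spread between arrays was larger than that between spots. Counted from the highest mean, Inhbb was gene 10 of 20119.

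Inhba, which encodes the beta A subunit of activin A, differed between the arrays. Its normalised intensity came to 405 in the treated and 756 in the control pool of array 1, but 607 and 603 on array 2. Only the first pair of pools was apart, with a log2 ratio of -0.90, whereas the second pair gave 0.01. The mean of -0.45 ± 0.64 (SD, n = 2 arrays) was therefore smaller than its spread. The spots of array 1 ran from -0.95 to -0.86 (3 spots, 1 left out as an outlier) and those of array 2 from -0.05 to 0.05, so the spots of an array were alike while the arrays were not. With a single array in each dye orientation, a difference between pools and a difference between dyes cannot be told apart for such a gene.

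**Figure D1:**
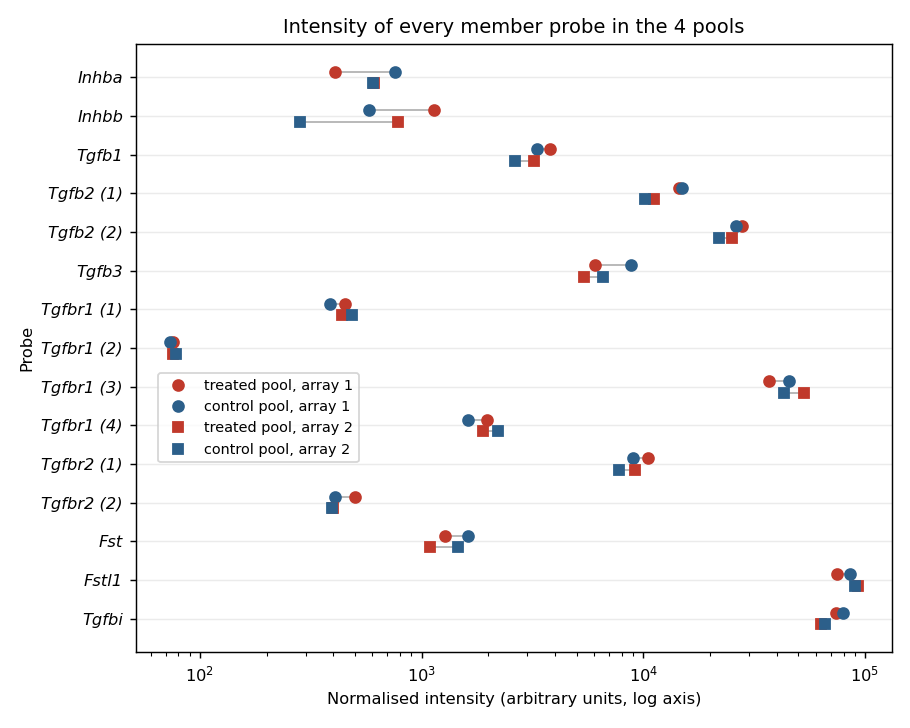
Normalised intensity (arbitrary units, log axis) of all 15 probes in the treated (red) and control (blue) pools of array 1 (circles) and array 2 (squares), with a grey line joining the pools of an array and probes of a gene numbered in the order of their names. Inhbb is the only gene whose treated pools lay at least 1.97-fold above their controls, and intensities of different probes are not comparable.

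The TGF-beta ligands differed less. Tgfb3, the ligand best known from palate and lung development, had 6080 in the treated and 8840 in the control pool of array 1, and 5380 and 6550 on array 2. Both treated pools lay below both control pools, with log2 ratios of -0.54 and -0.28 and a mean of -0.41 ± 0.18 (SD, n = 2 arrays), 1.33-fold lower. Its spots ran from -0.56 to -0.50 on array 1 and from -0.33 to -0.25 on array 2.

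Tgfb1, the ligand known foremost for its control of immune cells and matrix, had 3800 in the treated and 3330 in the control pool of array 1, and 3220 and 2630 on array 2. The treated pool was the higher on each array, by 1.14-fold and 1.22-fold, although the treated pool of array 2 was below the control pool of array 1. The mean log2 ratio was 0.24 ± 0.07 (SD, n = 2 arrays).

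Tgfb2, a ligand with roles in heart, kidney and urinary tract development, was read by a pair of probes. By the brighter one, the intensities were 27900 in the treated and 26300 in the control pool of array 1 and 25000 and 22000 on array 2. Its mean log2 ratio was 0.13 ± 0.07, and that of the second probe, A_51_P317640 (mm9, chr1:188447534-188447593, minus strand), was 0.04 ± 0.13 (SD, n = 2 arrays for both). The second probe gave -0.05 on array 1 and 0.14 on array 2, so only the brighter one had the same sign on both arrays.

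Among the receptors, Tgfbr2, the type II receptor that binds TGF-beta first, was a little higher in the treated pools. A_51_P450573 (mm9, chr9:115997155-115997214, minus strand) gave 10500 in the treated and 8940 in the control pool of array 1, and 9160 and 7750 on array 2. Its log2 ratio was 0.24 on each array, a 1.18-fold difference. The dimmer probe A_55_P2107288 (mm9, chr9:115999496-115999555, minus strand) gave 0.31 on array 1 and 0.01 on array 2, so the close match between arrays was not shared by both probes.

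Tgfbr1, the type I receptor kinase, was read by 4 probes that did not go together, and the first or last 30 bases of each are shown because the sign of the ratio on an array differed between them.
Tgfbr1 probe A_55_P2137206, bases 31 to 60: agcaatgcaAATAAAcaactttttcccacc
Tgfbr1 probe A_55_P2137211, bases 1 to 30: ctttttatctcatatgtgcagatcttgcaa
Tgfbr1 probe A_55_P1960901, bases 1 to 30: tggatttccaggatgaatatgggtctctga
Tgfbr1 probe A_55_P1960906, bases 1 to 30: gtgcataaaaagtgcatggtaAATAAAgtg
Capitals again mark AATAAA. The brightest, A_55_P2137206 (mm9, chr4:47427736-47427795), gave 37000 in the treated and 45400 in the control pool of array 1 and 52900 and 43200 on array 2. Its log2 ratios of -0.29 and 0.29 cancelled to 0.00 ± 0.42 (SD, n = 2 arrays), the pool labelled with AlexaFluor555 being the brighter on both arrays after loess. With arrays centred on their median in place of loess, the same probe gave 0.07 and -0.14, so the other pool was then the brighter on each. A_55_P2137211 (chr4:47424946-47425005) gave 0.29 and -0.22, and A_55_P1960901 (chr4:47395833-47395892) gave 0.22 and -0.16, so for these the pool labelled with AlexaFluor647 was the brighter after loess. A_55_P1960906 (chr4:47374114-47374173) was not well above background on any spot in either dye. No kept probe of Tgfbr1 had the same sign on both arrays, and the means of the 3 kept probes lay between 0.00 and 0.03.

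Fst encodes follistatin, the secreted protein that binds activins and keeps them from their receptors. By A_55_P2394308 (mm9, chr13:115243565-115243624, minus strand), the normalised intensity came to 1280 in the treated and 1620 in the control pool of array 1, and 1090 and 1460 on array 2. Both treated pools lay below both control pools. The log2 ratios of -0.34 and -0.42 gave a mean of -0.38 ± 0.06 (SD, n = 2 arrays), 1.30-fold lower, and the spots ran from -0.40 to -0.28 on array 1 and from -0.46 to -0.35 on array 2. Fst thus had the opposite sign to Inhbb on both arrays.

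Fstl1 encodes a secreted glycoprotein with a follistatin-like domain that is abundant in mesenchyme. The intensity came to 74800 in the treated and 85800 in the control pool of array 1, and 93000 and 90300 on array 2 (A_55_P2143517; mm9, chr16:37836492-37836551). Its log2 ratios of -0.20 and 0.04 had opposite signs, with a mean of -0.08 ± 0.17 (SD, n = 2 arrays). Tgfbi, a matrix protein gene named for its induction by TGF-beta, had 73900 in the treated and 79500 in the control pool of array 1, and 63500 and 65800 on array 2 (A_51_P212754; mm9, chr13:56740460-56740519). Its log2 ratios of -0.11 and -0.05 averaged -0.08 ± 0.04 (SD, n = 2 arrays), with the treated pool the lower on each array, although the treated pool of array 1 was above both pools of array 2. With median centring this shared sign of Tgfbi was lost, with 0.42 on array 1 and -0.56 on array 2. Fstl1 then gave 0.34 and -0.54, again with opposite signs.

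**Figure D2:**
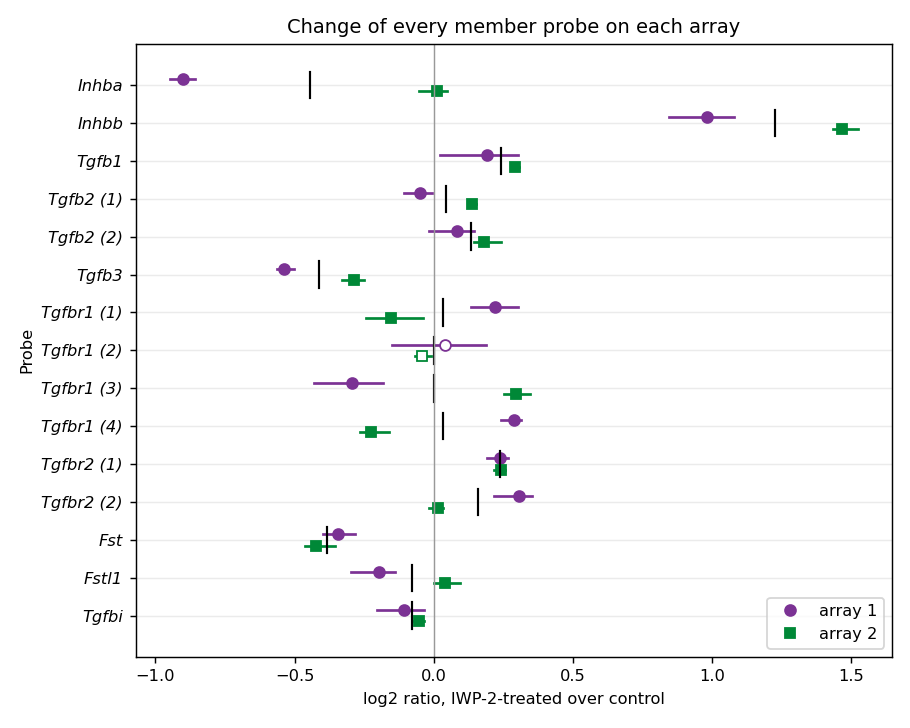
log2 ratio of IWP-2-treated over control for the 15 probes on array 1 (purple circles) and array 2 (green squares), with a line from the lowest to the highest spot, a black bar at the mean of both arrays, and open symbols for the probe that was not well above background. The arrays lie far apart for Inhba (-0.90 and 0.01) and on opposite sides of 0 for the Tgfbr1 probes, and close together for Fst (-0.34 and -0.42).

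Counted over the 10 genes, 1 was past an FDR of 0.05 in the higher direction (Inhbb) and 0 in the lower direction by limma, against 0.611% higher and 1.15% lower, and 1.76% in all, of the 20119 genes tested. As the genes were picked with this comparison known, nothing is read from these counts. At an unadjusted p under 0.05, 3 of the 10 were higher and 2 lower, beside 8.67% and 4.74% of all genes, and nothing is read from these counts either. In 7 of 10 the sign was the same on both arrays, 4 higher and 3 lower, where 56% of all genes had the same sign. The median of the 10 means was -0.04, beside 0.00 over all genes. The 5th and 95th percentiles of all genes were -0.25 and 0.36, with Inhba, Tgfb3 and Fst below this range and Inhbb above it. The median SD between arrays was 0.12 for the 10 genes and 0.11 for all genes.

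Of the other genes of the pathway, 62 were listed by role and 59 could be tested, with Inhbc, Gdf15 and Lefty1 too dim. By limma, 1 of the 59 was higher and 1 lower at an FDR of 0.05, against the 0.611% and 1.15% of all genes. The lists were made with earlier results of these data known, so these calls are given as a description. The median log2 ratio of the 59 was -0.06, beside 0.00 over all genes, and 13 were higher and 25 lower on both arrays. Over all genes, 56% had the same sign on both arrays, but the shares by direction are not given here. No tendency of a list is therefore read from such counts, here or below.

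Dcn was the gene that fell. It encodes decorin, a matrix proteoglycan that binds TGF-beta, and the normalised intensity came to 3330 in the treated and 6680 in the control pool of array 1, and 3370 and 6500 on array 2. Both treated pools were clearly below both control pools, with a mean log2 ratio of -0.98 ± 0.04 (SD, n = 2 arrays; limma adjusted p = 0.0107). Among the 6 tested inhibitors, which included the decoy receptor Bambi, 4 were lower on both arrays and 0 higher. Bambi, whose membrane protein lacks a kinase, had 135 in the treated and 195 in the control pool of array 1, and 119 and 172 on array 2. Its mean of -0.53 ± 0.01 missed the threshold here (limma adjusted p = 0.058) and passed it in 5 of 10 other settings. Bambi was dim, and its mean was -1.13 with the scanner software's own processed signals (limma adjusted p = 0.02). Fstl3, which binds activins as follistatin does, averaged -0.22 ± 0.01 (limma adjusted p = 0.427).

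Mstn was the gene that rose. It encodes myostatin, a ligand that signals through activin receptors and limits muscle growth. It was dim, with 208 in the treated and 134 in the control pool of array 1 and 198 and 123 on array 2, and both treated pools lay above both control pools. The mean log2 ratio was 0.66 ± 0.03 (SD, n = 2 arrays; limma adjusted p = 0.033), and 1.38 when the scanner software's own processed signals were used (limma adjusted p = 0.0129). Of the 8 tested ligands besides the 10 genes, Gdf9 (-0.30 ± 0.03, also dim) and Gdf11 (-0.08 ± 0.04) had the largest differences that did not pass. The call of Mstn was lost when arrays were centred on their median and when dim probes were not removed, and that of Dcn under the former.

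The remaining 4 lists held 0 genes past the threshold by limma, and 2 higher and 5 lower of their 45 genes at an unadjusted p under 0.05, where 8.67% of all genes were higher and 4.74% lower. Among 9 receptors, the coreceptor gene Tgfbr3, whose product presents TGF-beta to its receptors, averaged 0.47 ± 0.02 (limma adjusted p = 0.0805) and Acvrl1, the type I receptor of endothelium, 0.26 ± 0.07. Among 11 genes of latency and release, Ltbp3 averaged -0.31 ± 0.13 and Ltbp1 -0.24 ± 0.20, both encoding proteins that tether latent TGF-beta in the matrix, and 6 of the 11 were lower on both arrays.

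Inside the cell, 11 SMADs and their regulators were tested. Smad7, the inhibitory SMAD that the pathway itself induces, had -0.72 on array 1 and -0.16 on array 2, with a mean of -0.44 ± 0.40 (limma adjusted p = 0.251), and Tgif2, a SMAD corepressor, averaged -0.34 ± 0.15. Among 14 genes that TGF-beta is known to induce, the median was 0.08. Cdkn2b, which encodes a cell cycle inhibitor and was dim, averaged 0.48 ± 0.65, with 0.03 on array 1 and 0.94 on array 2. Tagln, a smooth muscle gene, averaged -0.33 ± 0.30. The induced genes thus had no common direction, as 6 of the 14 were higher and 4 lower on both arrays.

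**Figure D3:**
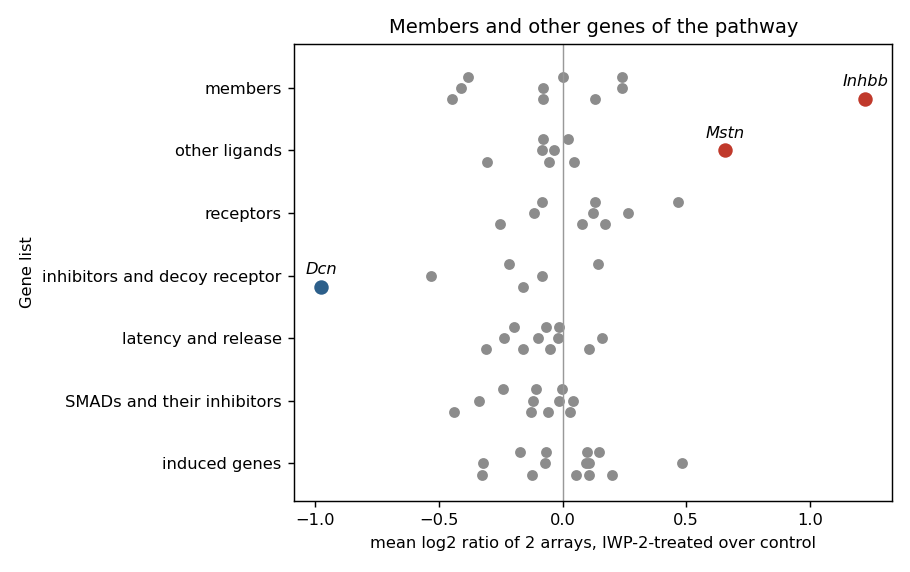
Mean log2 ratio of both arrays (IWP-2-treated over control) for the 10 genes (members) and the 59 tested genes of the other lists, with points shifted up and down for sight only and genes past an FDR of 0.05 by limma named, red if higher and blue if lower. Inhbb at 1.22, Mstn at 0.66 and Dcn at -0.98 are the named genes; Inhbb was chosen with its value known.

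The genes nearest to Inhbb, by distance over the log2 ratios of both arrays among all 20119 genes, were Pmaip1 (0.85 and 1.45, distance 0.13), Gpnmb (1.08 and 1.33, distance 0.17) and Gpr84 (1.12 and 1.59, distance 0.18). With 2 arrays, likeness of this kind means only that the ratios were of similar size on each.

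Markers of other cell types were examined beside Inhbb. These lists were chosen with earlier results of these data known, so their calls and p-values are given as a description. Of 14 macrophage markers, all of them bright enough to be tested, 13 were higher in the treated pool on both arrays, with a median log2 ratio of 0.42 and 1 past an FDR of 0.05 (Adgre1, 0.93 ± 0.41, limma adjusted p = 0.0409). Their summed intensity came to 160000 in the treated and 128000 in the control pool of array 1, and 133000 and 97100 on array 2. All 10 endothelial markers were higher on both arrays, with a median of 0.47, sums of 140000 and 117000 in the treated and 103000 and 74200 in the control pools, and 2 past the threshold (Kdr, 0.74 ± 0.20, limma adjusted p = 0.0359, and Cldn5, 0.65 ± 0.04, limma adjusted p = 0.0347). Nerve markers had a median of 0.36, with 7 of 8 higher on both arrays and sums of 226000 and 231000 in the treated and 163000 and 175000 in the control pools. Red cell genes had a median of 0.48, with 5 of 7 higher on both arrays and sums of 829000 and 621000 against 652000 and 439000. Epithelial markers had a median of 0.13, with 5 of 10 higher on both arrays and sums of 288000 and 344000 against 278000 and 292000. By limma, 0 genes of the nerve, red cell and epithelial lists were past the threshold. Of all genes, 0.611% were higher and 1.15% lower at this threshold. At an unadjusted p under 0.05 it was 13 macrophage, 10 endothelial, 6 nerve, 5 red cell and 3 epithelial genes, all higher. Of all genes, 8.67% were higher and 4.74% lower by that measure. The part of these cells in the differences of Inhbb, Tgfb1, Tgfbr2 and Mstn was not tested.

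Mesenchymal markers had a median log2 ratio of -0.19 over 10 genes, 4 of them higher and 6 lower on both arrays. This list, too, was chosen with earlier results known, so its calls are a description. Summed intensities were 312000 and 373000 in the treated and 301000 and 324000 in the control pools. At an unadjusted p under 0.05 by limma, 4 were higher and 4 lower, beside 8.67% and 4.74% of all genes. Tbx18, the transcription factor gene that marks ureteric mesenchyme, fell, with -1.03 ± 0.21 (limma adjusted p = 0.0126) and so did Tcf21, a transcription factor gene of kidney and ureter stroma, with -0.77 ± 0.13 (limma adjusted p = 0.0247). The paper describes Tbx18 as lost from ureteric mesenchyme that lacks Ctnnb1. For Tbx18, less expression per cell and fewer mesenchymal cells cannot be told apart here. The part of mesenchymal cells in the differences of Dcn, Fst and Tgfb3 was not tested. The labelled tissue showed its markers: Tbx18, Tcf21 and the 10 epithelial markers were above background.

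**Figure D4:**
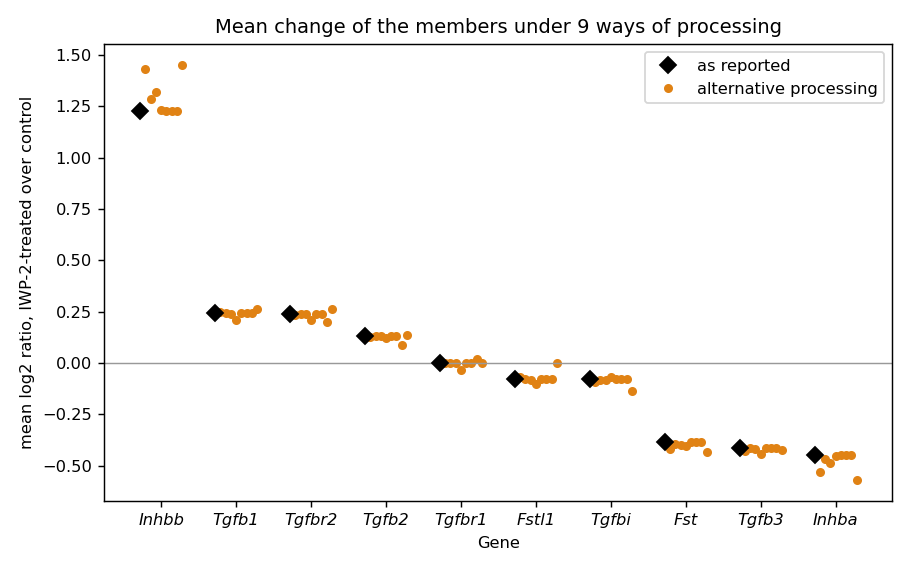
Mean log2 ratio (IWP-2-treated over control, 2 arrays) of the 10 genes as reported (black diamonds) and under 8 alternative ways of processing (orange points), ordered by the reported mean. Inhbb ran from 1.22 to 1.45 and lay above the other genes throughout, while Tgfbr1 stayed between -0.04 and 0.02. Settings that change only the filter or the probe rule cannot move a gene with a single probe.

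The means over both arrays moved little with the processing, while the ratios of single arrays moved more. Part of this was fixed in advance. A gene with a single probe, such as Inhbb, Tgfb3 or Fst, keeps its value when only the filter or the probe rule changes. A dye bias alike on both arrays cancels in a mean over swapped dyes, whether loess or median centring is used. The small movement of the means is therefore no test of them. Across 8 other settings, the mean of Inhbb ran from 1.22 to 1.45, that of Tgfb3 from -0.44 to -0.41, that of Fst from -0.43 to -0.38 and that of Inhba from -0.57 to -0.45. Tgfb1 stayed between 0.21 and 0.26, Tgfbr2 between 0.20 and 0.26 and Tgfb2 between 0.09 and 0.14. With median centring, 6 of the 10 genes had the same sign on both arrays in place of 7, and Tgfb2 gave 0.34 and -0.10, Tgfbr2 0.36 and 0.06 and Inhba -0.81 and -0.09. Inhbb (1.08 and 1.38), Tgfb3 (-0.44 and -0.45) and Fst (-0.25 and -0.56) kept their sign on both arrays. Tgfbr1 lay between -0.04 and 0.02, and was above 0 with the scanner software's processed signals and with the mean over probes. In the deposited series table, Tgfbr1 and Fstl1 were both 0.00. The call of Inhbb was lost when arrays were centred on their median in place of loess (mean 1.23), when dim probes were not removed (mean 1.22) and in the series table (mean 1.45). As Inhbb was chosen with its value known, nothing is read from its call in any setting.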

How the data were processed

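Per the labels, RNA of IWP-2-treated and control ureters was hybridised on 2 two-colour arrays of design 084956 with the dyes swapped. They shared 1 slide and 1 scan. The deposited scanner files hold the intensity of each spot and its local background, read per the file headers with Feature Extraction 12.2.0.7, whereas the submitters' processing notes name version 10.7.3.1. Other deposited columns mark outlier, saturated and well-above-background spots and give probe positions (mm9) and sequences. The deposited table of the series holds a signed score per probe, which by its values is a fold of treated over control rounded to 1 decimal (median 1 on both arrays). Its values correlated with the log2 ratios of the processed intensities with r = 0.669 and r = 0.744, and its normalisation is not given in the sources used here.

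Values were computed with limma 3.58.1 in R 4.3.3. Intensities were background-corrected by normexp (offset 50) and log2 ratios normalised by loess within each array (span 0.3, control spots weighted 0). The intensities given for single pools were in addition quantile-normalised between arrays on their average intensity (Aquantile), which leaves the log2 ratios unchanged. Comparisons of pools of different arrays rest on this step. Outlier spots were dropped and the 4 spots of a probe averaged. A probe stayed in where over a share of 0.5 of its spots was marked well above background on both arrays, in the channel of the treated or of the control RNA (26986 of 39429 probes), and the brightest kept probe stood for its gene. The limma functions lmFit and eBayes tested the mean log2 ratio with the dye swap as a sign, two-sided, with Benjamini-Hochberg adjustment over 20119 genes. The fit was tested on simulated data. The share of spots so marked was between 68.6% and 70.7% per channel, and 0 of the 4 spots of any of the 15 probes was saturated. With 2 arrays and 1 residual degree of freedom per gene, this number limits the precision. The eBayes step added 5.52 prior degrees of freedom, drawn from the spread of all genes. The p-values thus rest on the spread between these pools, much of it pooled over genes. No term for the dye could be fitted beside the treatment.

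The 10 genes, the 62 pathway genes and the marker lists were chosen with earlier results of these data known. The 4 WNT targets are no independent check either, as the paper names some of them from IWP-2-treated ureters. Named were all probes of the 10 genes, pathway genes past an FDR of 0.05 alike on both arrays, the 2 largest others per list, 4 WNT targets, the 3 genes nearest to Inhbb and markers past the threshold. All symbols of the 10 genes and of the lists were in the RefSeq gene table (GRCm38.p6), which was used for names only. Alternatives were other background corrections, centring, filters, probe rules, variance priors, values of the series table and each array alone.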

Additional observations from a re-analysis of the deposited data

How the results depend on the processing

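In the 8 settings with both arrays, the 10 genes kept the sign of their mean but for Tgfbr1 and Fstl1. Not all of these settings could move a gene with a single probe. Tgfbr1 was above 0 with the processed signals and the mean over probes, and both genes were 0.00 in the series table. On array 2 alone, Inhba (0.01), Fstl1 (0.04) and Tgfbr1 (0.29) were above 0. Counts of calls moved. With the scanner software's processed signals, 75 genes were higher, and 2 pathway genes lower. Without background correction 74 were higher. With an offset of 10, 2 pathway genes were lower. Centring on the median left 6 genes higher and 34 lower, with 0 of the 10 genes and 0 pathway genes in either direction. Without a filter on dim probes, 21 were higher and 98 lower, with 0 of the 10 genes and 0 pathway genes higher. The mean over probes gave 224 higher genes and 2 lower pathway genes. A variance prior with a trend on intensity gave 224 higher genes, and with a robust prior 226, each with 2 pathway genes higher and 2 lower (Dcn and Bambi lower, Mstn and Tgfbr3 higher). In the series table, 1037 genes were higher and 1323 lower, among them 3 of the 10 genes higher (Tgfb1, Tgfb2 and Tgfbr2), 1 lower (Tgfbi), and 5 pathway genes higher and 6 lower: for these 4 of the 10 the rounding made both arrays equal, so their spread was 0. The median of the pathway genes was between -0.064 and -0.037 on the single arrays. Single arrays allowed no test. No further pairing was possible, because each array is itself 1 pair of pools and the tested log2 ratio already is the paired value. With 1 array in each dye orientation, a dye effect and a difference between the pairs of pools cannot be told apart. Apart from the rounding, the cause of these changes was not tested.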
